A study of Mus musculus with 12 samples.

Results

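Egr and AP-1 transcription factors were followed across 4 groups of mouse bone marrow RNA-seq libraries, to see which members answered to mutant NRAS and which to mutant SETBP1. The 10 genes were taken by symbol from a table of 19910 genes. They are Egr1, Egr2 and Egr3, the Fos family genes Fos, Fosb, Fosl1 and Fosl2, and the Jun family genes Jun, Junb and Jund. Of these, 9 passed the low-count filter and were tested, and Fosb did not.

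Marrow of female C57BL/6J mice aged 6 to 10 weeks was transduced with retrovirus, and each of the 4 groups was sequenced in 3 libraries. The empty group carried empty vectors only. The SETBP1 group carried SETBP1 (D868N) with an empty vector, the NRAS group carried NRAS (G12D) with an empty vector, and the last group, called both, carried SETBP1 (D868N) with NRAS (G12D). All 4 groups, controls included, were thus retrovirally transduced, and the labels call all 12 samples leukemia cells from the bone marrow. The mutants were added to cells with their own Nras and Setbp1 genes, though Setbp1 had no reads without the SETBP1 vector. The vector promoters are not given in the sources used here. Whether replicates came from separate mice or transductions is not given either, so p-values measure only the spread between these libraries, which may be technical.

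EGR proteins are zinc-finger factors that bind GC-rich sites, and AP-1 is a dimer of a Jun protein with a Fos protein or another Jun protein. Most of these genes are immediate-early genes: growth signals that run through RAS and the kinase ERK switch them on within minutes, through serum response factor (SRF) and the ternary complex factors bound beside it. In marrow, EGR1 and JUN are known for promoting monocyte differentiation and JUNB for restraining the expansion of myeloid cells.

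Promoters are shown for Fos, Jun and Junb, the genes called higher with SETBP1 that the RefSeq table covers; Jun and Junb were also called higher with NRAS. Each line gives the 250 bases before the start site, 5′ to 3′ on the gene's strand, from RefSeq on GRCm38.p6. They lie at chr12:85473640-85473889 (plus strand), chr4:95052223-95052472 (minus strand) and chr8:84978749-84978998 (minus strand), respectively. Capitals mark matches on either strand to the motifs searched.

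Fos: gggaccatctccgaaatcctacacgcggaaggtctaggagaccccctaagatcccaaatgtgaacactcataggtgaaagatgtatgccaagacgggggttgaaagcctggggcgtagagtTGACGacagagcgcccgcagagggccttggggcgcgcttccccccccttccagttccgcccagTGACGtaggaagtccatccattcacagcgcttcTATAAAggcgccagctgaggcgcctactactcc

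Jun: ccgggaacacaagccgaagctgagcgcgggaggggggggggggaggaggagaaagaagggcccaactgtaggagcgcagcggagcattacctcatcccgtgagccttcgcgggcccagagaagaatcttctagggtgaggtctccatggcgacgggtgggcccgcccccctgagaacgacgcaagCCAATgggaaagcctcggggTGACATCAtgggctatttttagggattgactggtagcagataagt

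Junb: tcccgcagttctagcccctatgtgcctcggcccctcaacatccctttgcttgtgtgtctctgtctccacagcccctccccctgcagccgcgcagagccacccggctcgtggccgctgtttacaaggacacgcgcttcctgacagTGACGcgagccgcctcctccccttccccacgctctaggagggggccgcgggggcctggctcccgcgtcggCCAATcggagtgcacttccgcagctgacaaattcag

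The motifs searched were TGACG, the core of the site for CREB and ATF proteins, its full form TGACGTCA that contains it, the AP-1 sites TGANTCA and TGACATCA, the Ets core CCGGAA, the EGR site GCGNGGGCG, the CArG box bound by SRF, CCAAT and TATAAA. The Fos window held TGACG at -129 and -66 and TATAAA at -33 from the start site. In the Jun window TGACATCA stood at -45 and CCAAT at -65, and in the Junb window TGACG stood at -106 and CCAAT at -36. Of 32851 windows of the same length, 17.8% held TGACG, 2.93% TGACATCA, 33.8% CCAAT and 12.4% TATAAA. TGACATCA was therefore the least common of the motifs matched in the Fos, Jun and Junb windows. No match in these windows was found for TGANTCA (6.75% of windows), CCGGAA (12.03%), GCGNGGGCG (4.70%), TGACGTCA (1.55%) or the CArG box (1.47%), which says only that these letters are not in these bases. The RefSeq table used here gave windows for 7 members. Those of Fosl2 and Jund were not used, because their start sites lay 671 and 1210 bases from a GENCODE coding start. Windows of Egr2 and Fosb were searched as well and are not shown. Egr2 had 5 windows, and that with start site chr10:67537869 was searched. It held a CArG box at -72, TGACG at -111 and -55 and CCAAT at -121. The Fosb window held the EGR site at -50 and TGACG at -60.

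Total counts ran from 7085894 to 8864919 reads per library. Nras stood at 82.0 to 93.0 normalised CPM without the NRAS vector and at 1423 to 1712 with it, and the mouse Setbp1 gene was given reads in the 6 libraries with the SETBP1 vector and in none of the other 6. Setbp1 reads were few, 5 to 7 per library with SETBP1 alone (0.59 to 0.91 CPM) and 11 to 17 with both (1.48 to 2.18 CPM), with no overlap. Progenitor markers (Ptprc, Spi1, Cebpa, Kit, Cd34, Mpo, Elane) were present in every group, while T-cell markers summed to at most 0.553 CPM and Pax5, Hba-a1, Hbb-bs and Hbb-bt had no reads. SETBP1 replicate 3 stood apart: its log2 CPM correlated with the other libraries of its group at r = 0.946 and 0.953, against 0.984 or more for every other pair within a group. It had the fewest genes with a count, 11835, and its megakaryocyte markers summed to 623 CPM against 288 and 301 in replicates 1 and 2. Among the members it held 3.49 times the mean of replicates 1 and 2 for Egr2, 1.83 times for Jund, 1.55 times for Fos and 1.36 times for Junb. Calls of the members that change without it are given both ways.

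With NRAS, Egr1, Egr3 and Fosl1 rose most, and Fosl2 and all 3 Jun genes rose by smaller amounts. The changes of Fos and Egr2 against empty did not pass the test in the main fit, but did in some alternative fits. With SETBP1 alone, Fos, Egr1, Junb and Jun rose and Fosl1 and Fosl2 stayed near their empty-vector levels. The calls of Fos, Egr1 and Jun, but not that of Junb, were lost when only the SETBP1 and empty groups were fitted. The plot of normalised CPM by library shows these patterns gene by gene.

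**Figure D1:**
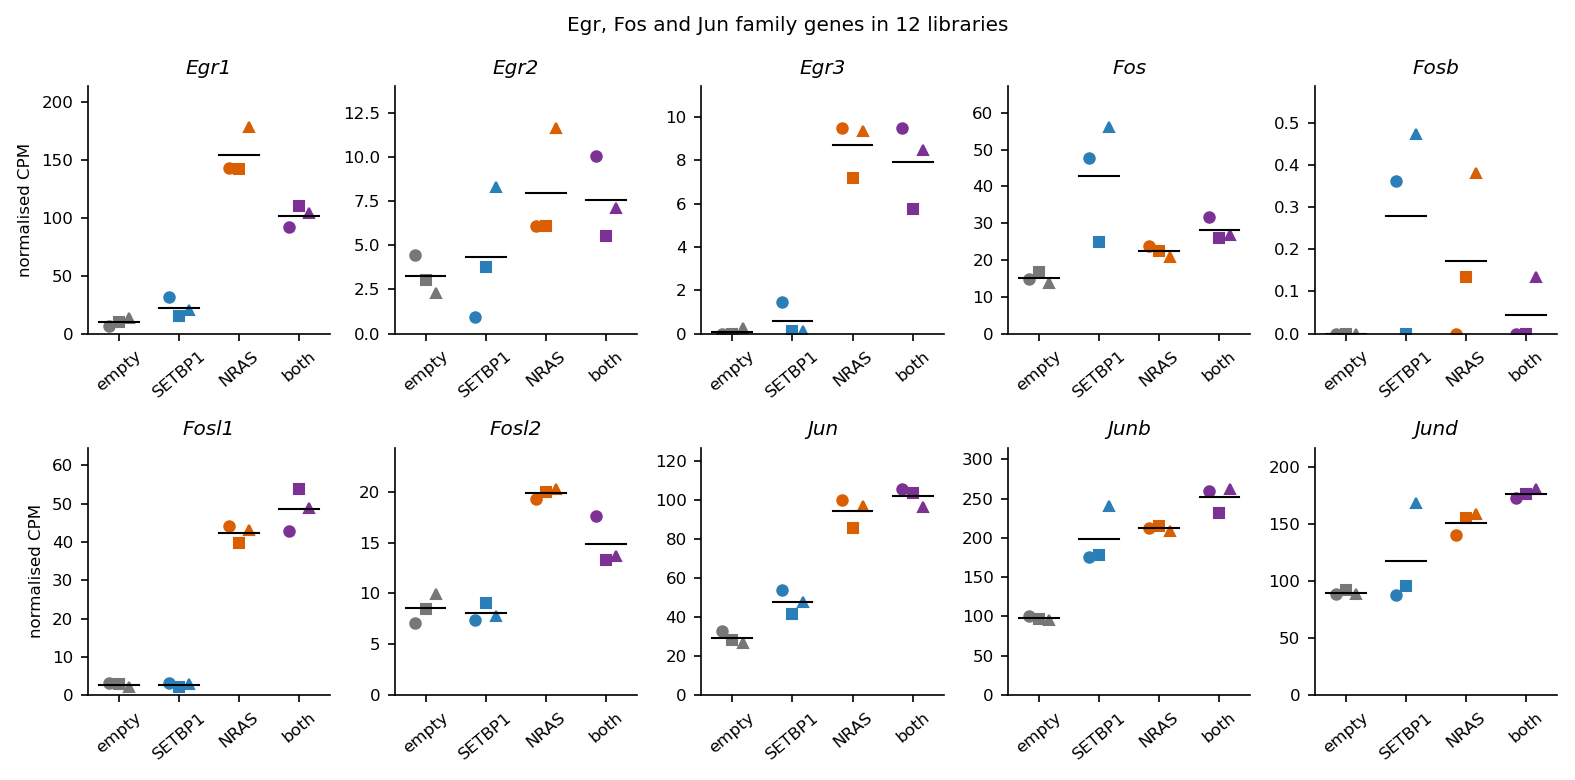
Normalised CPM (y axis, linear and starting at 0) of the 10 Egr, Fos and Jun family genes in each of 12 libraries, by group on the x axis; circles, squares and triangles are replicates 1, 2 and 3 and horizontal bars are group means. Fosl1 sits between 39.6 and 53.9 CPM in the 6 libraries with NRAS and between 2.02 and 3.25 CPM in the other 6, while Fos is highest with SETBP1 alone.

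Egr1, the most abundant Egr gene here, lies at chr18:34859823-34864984. Its normalised CPM was 6.97, 10.2 and 13.4 with empty vectors, 31.9, 15.03 and 20.4 with SETBP1, 143, 142 and 178 with NRAS, and 92.0, 110.1 and 104 with both. The 4 groups did not overlap: empty was lowest, then SETBP1, then both, and NRAS alone was highest. NRAS raised Egr1 by log2 3.94 (SE 0.26, edgeR adjusted p 7.89e-08) without SETBP1 and by 2.18 (SE 0.23, adjusted p 7.21e-06) with it. SETBP1 alone raised it by 1.16 (SE 0.26, adjusted p 0.0137), a call that was lost without empty replicate 1 (0.95, adjusted p 0.0672) and when only these 2 groups were fitted (adjusted p 0.110). On top of NRAS, the SETBP1 change was -0.60 (SE 0.21, adjusted p 0.232), which passed when only these 2 groups were fitted (-0.60, adjusted p 0.000620).

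Egr3, best known from lymphocytes and muscle spindles, lies at chr14:70077203-70082614. It had 0, 0 and 0.270 CPM with empty vectors and 1.45, 0.131 and 0.118 CPM with SETBP1, against 9.51, 7.17 and 9.38 CPM with NRAS and 9.51, 5.76 and 8.48 CPM with both. Summed over 3 libraries these were 2, 14, 199 and 176 reads. Every library with NRAS was thus above every library without it. By read sums, the level with NRAS was 105.9 times that with empty vectors, with a 95% interval of 28.9 to 881 that covers counting error only. For both against SETBP1 the ratio was 13.7 (7.95 to 25.6), and both NRAS changes passed the test (edgeR adjusted p 3.40e-05 and 0.000212). The SETBP1 change without NRAS did not pass (adjusted p 0.143), and 12 of its 14 reads came from replicate 1.

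Egr2, which acts in macrophage and lymphocyte differentiation, lies at chr10:67535475-67542188. It stayed low in all groups: 4.43, 3.05 and 2.29 CPM with empty vectors, 0.963, 3.79 and 8.28 with SETBP1, 6.08, 6.09 and 11.7 with NRAS, and 10.1, 5.50 and 7.13 with both. The NRAS libraries were above the empty ones, and the SETBP1 libraries spanned nearly the whole range. The NRAS change was log2 1.27 (SE 0.53) against empty and 0.79 (SE 0.52) on top of SETBP1, neither past the threshold (edgeR adjusted p 0.0844 and 0.241). Averaged over both backgrounds it was 1.03 and passed (adjusted p 0.0325), but not without NRAS replicate 3 (0.83, adjusted p 0.101), nor without any of 5 other libraries taken singly, with SETBP1 replicate 2, both replicates 1 and 3 and empty replicates 2 and 3 among them (0.90 to 1.05, adjusted p 0.0508 to 0.0839). Without SETBP1 replicate 3, the change of both against SETBP1 was 1.69 and passed (adjusted p 0.00472), as did NRAS against empty (1.27, adjusted p 0.00806). NRAS against empty also passed without SETBP1 replicate 1 (1.26, adjusted p 0.0218) and when only these 2 groups were fitted (1.26, adjusted p 0.00322). NRAS against SETBP1, a comparison added after the values were seen, gave 0.87 (adjusted p 0.199) for Egr2. Without SETBP1 replicate 3 it gave 1.77 (adjusted p 0.00349).

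Fosl1 encodes FRA1, a Fos protein without the strong activation domain of FOS that is known as a lasting target of ERK signalling; it lies at chr19:5447547-5455946. Its normalised CPM was 3.10, 2.92 and 2.02 with empty vectors, 3.25, 2.09 and 2.84 with SETBP1, 44.1, 39.6 and 43.2 with NRAS, and 42.8, 53.9 and 49.0 with both. Libraries with NRAS stood far above those without, and SETBP1 libraries lay within or close to the range of their controls. The NRAS change was log2 3.96 (SE 0.19, edgeR adjusted p 4.28e-09) without SETBP1 and 4.14 (SE 0.18, adjusted p 2.20e-09) with it. SETBP1 changed Fosl1 by 0.02 without NRAS (95% interval -0.48 to 0.52) and by 0.20 with it (-0.11 to 0.51).

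Fosl2, which encodes the related protein FRA2 and lies at chr5:32135801-32157842, had 7.08, 8.51 and 9.99 CPM with empty vectors, 7.35, 9.02 and 7.81 with SETBP1, 19.3, 20.02 and 20.3 with NRAS, and 17.6, 13.3 and 13.7 with both. All libraries with NRAS were above all without it, and those with both were below those with NRAS alone. NRAS raised Fosl2 by log2 1.22 (SE 0.18, edgeR adjusted p 0.000127) and, on top of SETBP1, by 0.88 (adjusted p 0.00138). The SETBP1 change was -0.08 without NRAS (adjusted p 0.790) and -0.42 with it (adjusted p 0.321).

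Fos, the founding member of the family and a brief responder to growth signals, lies at chr12:85473890-85477273. Its normalised CPM was 14.9, 16.6 and 13.8 with empty vectors, 47.7, 24.8 and 56.1 with SETBP1, 23.9, 22.5 and 20.9 with NRAS, and 31.7, 26.0 and 26.8 with both. SETBP1 replicates 1 and 3 were highest, SETBP1 replicate 2 lay between the NRAS libraries and those with both, and the empty libraries were lowest with no overlap with any other group. SETBP1 raised Fos by log2 1.5 (SE 0.23, edgeR adjusted p 0.00242), and by 1.27 without replicate 3 (adjusted p 0.000313). Fitted on these 2 groups alone, the call was lost (adjusted p 0.0519). NRAS alone gave 0.57 (SE 0.24, adjusted p 0.0826), which passed without SETBP1 replicate 3 (0.57, adjusted p 0.0176) or replicate 2 (0.56, adjusted p 0.00708). It also passed when only the NRAS and empty groups were fitted (0.56, adjusted p 0.00189). With both, Fos was lower than with SETBP1 alone by a log2 change of -0.61 (adjusted p 0.0416), but the groups overlapped. Leaving out single libraries ended that call in 10 of 12 cases, among them SETBP1 replicate 3 (-0.37, adjusted p 0.115), and over 18 alternatives the adjusted p ran from 0.000356 to 0.126. The change of both against NRAS was 0.33 (adjusted p 0.705). NRAS against SETBP1 gave -0.94 for Fos (SE 0.23, adjusted p 0.00497).

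Fosb, at chr7:19302696-19310051, had 0 reads in every empty library, 3, 0 and 4 with SETBP1, 0, 1 and 3 with NRAS, and 0, 0 and 1 with both. Summed by group these were 0, 7, 4 and 1 reads, so the gene was barely detected and was not tested.

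Junb, whose protein opposes JUN at some promoters, lies at chr8:84974484-84978718. It had 100.2, 97.1 and 95.7 CPM with empty vectors, 176, 179 and 240.4 with SETBP1, 213, 215 and 209 with NRAS, and 260.1, 232 and 263 with both. The empty libraries were lowest without overlap, and SETBP1 and NRAS libraries overlapped each other. SETBP1 raised Junb by log2 1.02 (SE 0.11, edgeR adjusted p 0.000344) and NRAS raised it by 1.12 (SE 0.11, adjusted p 3.48e-06). The 2 single mutants differed by 0.10 (95% interval -0.13 to 0.32), and without SETBP1 replicate 3 by 0.26, with NRAS higher (adjusted p 0.00464). Both against SETBP1 gave 0.34 (SE 0.10, adjusted p 0.0174), which was lost without SETBP1 replicate 1 (0.25, adjusted p 0.0700) or 2 (0.26, adjusted p 0.0844) and without replicate 1 (0.32, adjusted p 0.0605) or 3 (0.31, adjusted p 0.0623) of the group with both. That call was also lost when only these 2 groups were fitted (0.33, adjusted p 0.0992). For both against NRAS the change was 0.25 (adjusted p 0.358).

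Jun, the partner of most Fos proteins and a gene that AP-1 itself activates, lies at chr4:95049034-95052222. Its normalised CPM was 32.97, 28.4 and 26.9 with empty vectors, 53.6, 41.6 and 47.4 with SETBP1, 99.8, 85.8 and 97.0 with NRAS, and 106, 103 and 96.3 with both. Its steps were clean: empty below SETBP1, and SETBP1 below both groups with NRAS, which overlapped each other. NRAS raised Jun by log2 1.68 (SE 0.12, edgeR adjusted p 1.64e-07) and by 1.10 (SE 0.11, adjusted p 5.23e-06) on top of SETBP1. SETBP1 alone raised it by 0.69 (SE 0.12, adjusted p 0.00377), a call that was lost when only these 2 groups were fitted (adjusted p 0.0699). On top of NRAS the SETBP1 change was 0.11 (95% interval -0.12 to 0.35, adjusted p 0.837).

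Jund, the Jun gene known for steady rather than inducible expression, lies at chr8:70698949-70700616. It had 88.9, 91.7 and 88.8 CPM with empty vectors, 87.8, 95.9 and 168 with SETBP1, 140.2, 155 and 158 with NRAS, and 173, 176 and 181 with both. Replicate 3 of SETBP1 lay at the level of the NRAS groups while the other 2 SETBP1 libraries lay at that of the empty ones. The NRAS change was log2 0.75 (SE 0.18, edgeR adjusted p 0.00544) against empty. Both against SETBP1 gave 0.59 (adjusted p 0.0167), lost without SETBP1 replicate 1 (0.40, adjusted p 0.0598) or 2 (0.45, adjusted p 0.0774), and 0.94 (adjusted p 6.28e-09) without replicate 3. That call was also lost when only these 2 groups were fitted (0.57, adjusted p 0.0863). NRAS against SETBP1 gave 0.36 (adjusted p 0.117) with all libraries and 0.72 (adjusted p 3.56e-07) without SETBP1 replicate 3. SETBP1 against empty gave 0.39 (adjusted p 0.150) with all libraries, 0.03 (adjusted p 0.823) without SETBP1 replicate 3 and 0.57 (adjusted p 0.0224) without SETBP1 replicate 1.

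Counted over the 9 tested members, 7 were higher with NRAS than with empty vectors and 0 lower, where 17% of all 10993 genes tested were higher and 15.5% lower. The median log2 change of the members was 1.27, against -0.01 for all genes. For both against SETBP1, 7 were higher and 1, Fos, was lower, beside 20.9% and 21.5% of all genes. For SETBP1 against empty, 4 were higher and 0 lower, beside 8.31% and 6.55%, and the member median was 0.69 against -0.01 for all genes. Averaged over both backgrounds, NRAS raised 8 members, all but Fos, beside 26% of all genes, and SETBP1 raised 3, which were Fos (log2 0.92), Junb (0.63) and Jun (0.40), beside 7.21%. NRAS against SETBP1 had 5 members higher and 1, Fos, lower, beside 20.8% and 20.1%. These counts were 8 and 1 without SETBP1 replicate 3, and those for NRAS against empty were 9 and 0 and for both against SETBP1 8 and 0. The shares of all genes above are from the fit with all libraries and do not belong beside these counts. Without 1 library at a time, all genes called ranged from 2681 to 5224 for NRAS against empty (3576 with all libraries). The ranges were 3681 to 5166 for both against SETBP1 (4661) and 3286 to 5116 for NRAS against SETBP1 (4495). The comparisons with empty vectors share the 3 empty libraries. In bulk RNA, fewer cells of a type and less RNA per cell cannot be told apart.

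Libraries of the groups compared did not overlap for 9 of the 10 members with NRAS against empty, beside 56.3% of all genes, and for 6 with both against SETBP1 (48.8%). The same held for 4 members with SETBP1 against empty (33.2%), for 5 with both against NRAS (25.2%) and for 6 with NRAS against SETBP1 (48.4%). The 5 that separated both from NRAS were Fos, Junb and Jund, higher with both, and Egr1 and Fosl2, lower with both.

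**Figure D2:**
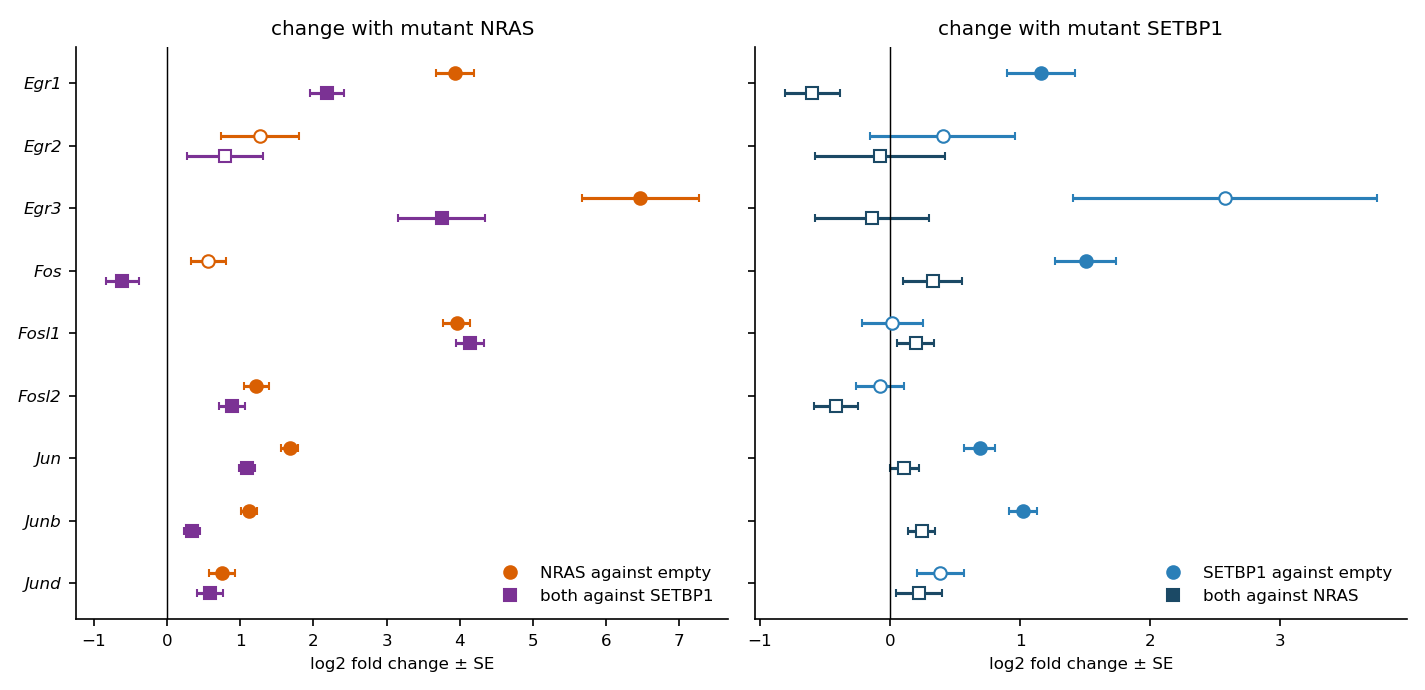
Log2 fold change with its SE (x axis) for the 9 tested members (y axis). The left panel gives the NRAS change without SETBP1 (circles) and with it (squares), and the right panel the SETBP1 change without NRAS (circles) and with it (squares); filled symbols passed an edgeR adjusted p of 0.05, the panels differ in x scale, and fitted Egr3 changes rest on 2 reads in the empty group. Fosl1 has nearly the same NRAS change on both backgrounds (3.96 and 4.14), and no SETBP1 change on top of NRAS is filled.

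On top of NRAS, SETBP1 moved 0 of the 9 members past the threshold in edgeR, beside 1.91% of all genes, and 0 in DESeq2. An unadjusted edgeR p under 0.05 was found for 3 members (Egr1, Fosl2, Junb), beside 1283 of all 10993 genes. Without SETBP1 replicate 3, which is in neither group but enters the shared spread, the same changes passed for Egr1 (-0.60, adjusted p 0.0266), Junb (0.25, adjusted p 0.0147) and Jund (0.22, adjusted p 0.0426). All genes called also moved, from 93 to 836 without 1 library at a time, against 210 with all libraries. Fitted on these 2 groups alone, Egr1, Junb and Jund passed (edgeR adjusted p 0.000620, 0.0195 and 0.0402), beside 883 of 10555 genes. The interaction compares how much SETBP1 changed a gene in the presence and in the absence of NRAS, as the first log2 change less the second. Its median over all genes was -0.01, and the members share the same 12 libraries. The interaction was below 0 for 8 of the 9 members, with Fosl1 (0.18) the exception. Without SETBP1 replicate 3 it was below 0 for 6 of 9, where Egr2 (0.42) and Jund (0.19) also lay above 0. Its values were -2.71 for Egr3 (SE 1.25, edgeR adjusted p 0.385), -1.76 for Egr1 (SE 0.34, adjusted p 0.132), -1.18 for Fos (adjusted p 0.208), -0.78 for Junb (SE 0.15, adjusted p 0.132) and -0.58 for Jun (adjusted p 0.208). The Egr3 value rested on 2 reads in the empty group and 14 in the SETBP1 group, and ran from -5.35 to -0.65 over 16 alternatives. In edgeR 0 members passed, beside 0.0455% of all genes. The 5 genes named had an unadjusted p under 0.05, as did 1420 of all 10993 genes. DESeq2 called 2, Egr1 (adjusted p 0.000427) and Junb (adjusted p 0.00150), and the same 2 passed in edgeR without SETBP1 replicate 3, at -1.83 (adjusted p 0.00519) and -0.61 (adjusted p 0.00276). Egr1 and Junb also passed without SETBP1 replicate 1, and Egr1 and Fos (-1.46, adjusted p 0.0240) without SETBP1 replicate 2. For Egr1 the log2 changes of the single mutants thus summed to more than the change with both, and whether this passed depended on the tool and on the SETBP1 libraries.

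The share of each family's reads taken by its genes differed most between groups in the Fos family. Fosl1 made up 10.2% ± 2.25 (SD, n = 3) of the Fos family's reads with empty vectors, 5.196% ± 0.852 with SETBP1, 49.9% ± 1.49 with NRAS and 53.0% ± 5.88 with both. Fos made up 57.4% ± 3.45, 78.0% ± 7.75, 26.4% ± 1.55 and 30.7% ± 3.36 in the same order. The family's leading gene by reads was therefore Fos without NRAS and Fosl1 with it, and the family totals averaged 26.3, 53.9, 84.8 and 91.7 CPM. Within the Egr family, Egr2 held 25.4% ± 12.4 with empty vectors and 4.54% ± 1.14 with NRAS, and Egr1 held 74.0% ± 11.6 and 90.3% ± 1.02. The Jun family was split more evenly, with Junb at 45.0% ± 0.291, 54.9% ± 1.98, 46.4% ± 1.21 and 47.4% ± 1.78. These shares are read shares, not corrected for gene length, and are compared between groups for the same gene; no test was run on them.

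**Figure D3:**
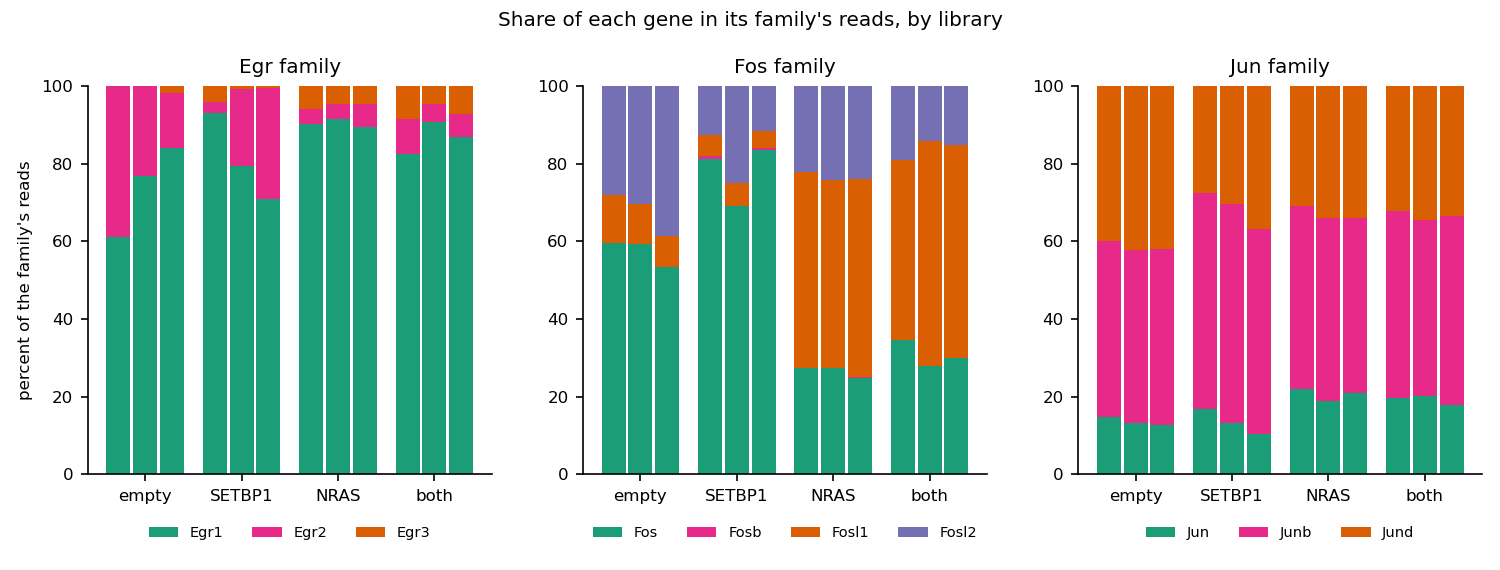
Percent of the family's reads (y axis, 0 to 100) taken by each Egr, Fos and Jun family gene, stacked in a bar per library and grouped by vector on the x axis. In the Fos panel, Fosl1 takes 46.4 to 57.8% in the 6 libraries with NRAS and 4.23 to 12.3% in the 6 without.

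Levels of different genes were compared per kilobase of exon. With empty vectors the order was Jund (53.8 CPM per kb), Junb (42.5), Jun (9.23), Fos (6.43) and Egr1 (2.27), each apart from the next in all libraries, then Fosl1 (1.32), Egr2 (0.958) and Fosl2 (0.881), which overlapped, and then Egr3 (0.0204) and Fosb (0). With SETBP1 the order led with Junb (86.2) and Jund (70.4), which overlapped, then Fos (18.2) and Jun (14.9), which also overlapped, then Egr1 (5.002). NRAS brought Egr1 (34.4) to the third place, above Jun (29.5), Fosl1 (20.8) and Fos (9.54), with Junb (92.2) and Jund (90.6) on top and overlapping. With both, Junb (109) and Jund (106) overlapped at the top, followed by Jun (31.9), by Fosl1 (23.9) and Egr1 (22.7), which overlapped, and by Fos (11.98). Fosl1 thus stood below Fos without NRAS and above it with NRAS, in every library of each group. Egr2, Egr3 and Fosl2 stood between 1.54 and 2.34 CPM per kb in the 2 groups with NRAS, where Egr2 overlapped its neighbours.

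By likeness, taken as the smallest root mean square difference of mean-centred log2 CPM over 12 libraries, the gene nearest to Fosl1 was Nras itself (0.23), followed by Adam8 (0.29) and Flrt2 (0.31). Nras counts here include what the vector contributes. Nearest to Egr1 were Ptpn5 (0.32), Slc7a11 (0.34) and Etv4 (0.50), and nearest to Egr3 were Cdh17 (0.53), Ptgs2 (0.58) and Flrt2 (0.58). Fos was nearest to Prdx4 (0.27), Marcksl1 (0.27) and Ly9 (0.28), Junb to Sgk1 (0.11), Slc2a6 (0.13) and Fam162a (0.14), and Jun to Odc1 (0.19), Lilr4b (0.20) and Sntb2 (0.20). Fosl2 was nearest to Cap1 (0.18), Ndrg1 (0.19) and Pla2g12a (0.20), Jund to Sestd1 (0.11), Smap2 (0.11) and Litaf (0.11), and Egr2 to Dcbld1 (0.35), Vegfc (0.41) and Spsb1 (0.47). Among the members, Junb and Jund were the closest pair (0.27) and Egr3 and Fos the farthest (2.20). All 12 libraries and their depths are shared by these points, so the distances are a description.

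The counts of this and the following gene lists stand beside these shares of all genes tested. Against empty, 17% were higher and 15.5% lower with NRAS, and 8.31% and 6.55% with SETBP1. For both against SETBP1 they were 20.9% and 21.5%, and for both against NRAS 1.91% in either direction. These shares are from the fit with all libraries and do not belong beside list counts without SETBP1 replicate 3. SRF, its ternary complex factors and the NAB co-regulators of EGR proteins were mostly higher with NRAS. Of 6 tested, 5 were higher with NRAS than with empty vectors, with a list median of 0.79 against -0.01 for all genes. They were Nab2 (log2 2.21), the repressor that EGR proteins switch on and that binds them, Elk3 (1.27), Srf (0.80), Elk1 (0.77) and Nab1 (0.57). With SETBP1, 0 of the 6 passed in edgeR, and 0 also without SETBP1 replicate 3. The list of ERK and JNK kinases, p90RSK kinases and factors of AP-1 turnover had 2 of 11 genes higher with NRAS than with empty vectors (Rps6ka4 0.32, Rps6ka1 0.25), 1 lower (Mapk3, which encodes ERK1, -0.61) and a median of 0.06. These counts were 3 and 2 without SETBP1 replicate 3. On top of SETBP1, 6 of the 11 were higher, led by Rps6ka4 (0.63) and Gsk3b (0.62), and Mapk3 was lower (-0.79), with a median of 0.42. Genes known to rise on ERK activity, among them Dusp6, Phlda1 and Etv4, were higher with NRAS in 9 of 10 cases, with a median of 2.18, and in 0 of 10 cases with SETBP1 (median -0.12). In this list Phlda1 (3.75), Etv4 (3.45), Spry4 (2.87), Dusp4 (2.22), Dusp6 (2.20) and Dusp5 (2.16) changed most with NRAS.

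Other bZIP genes that can pair with Jun or Fos proteins were mixed. With NRAS 2 of 12 were higher, Atf3 (0.87) and Mafg (0.33), and 1 lower, Jdp2 (-0.24), near the 17% and 15.5% of all genes. With SETBP1 3 were higher, Batf2 (1.40), Maf (1.16) and Atf3 (0.66), beside 8.31% of all genes. Without SETBP1 replicate 3, Batf2 left the SETBP1 calls, and 7 of the 12 were higher and 1 lower with NRAS. Calls over all genes also moved in such fits, from 2681 to 5224 for NRAS against empty without 1 library at a time. Atf3, a stress-induced factor, was also higher with both than with NRAS (0.75, edgeR adjusted p 0.0475). It was the bZIP gene that passed in each of the 4 pairwise comparisons between groups that differ by 1 vector.

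Of 19 other immediate-early genes, 11 were higher and 2 lower with NRAS (median 0.59), led by Trib1 (1.96), Klf2 (1.39), Dusp2 (1.14), Sgk1 (0.98) and Zfp36 (0.94), with Klf4 (-2.27) and Gadd45b (-0.82) lower. With SETBP1 8 were higher and 1 lower (median 0.14), led by Dusp1 (1.22), the phosphatase that switches MAP kinases off, Ier2 (0.88), Sgk1 (0.86), Ier3 (0.86) and Dusp2 (0.73), with Btg2 (-0.61) lower. Without SETBP1 replicate 3 the SETBP1 counts were 7 and 1. On top of NRAS, Klf2 was higher (0.81, edgeR adjusted p 0.00797) and Btg2 lower (-0.62, adjusted p 0.0433), and without SETBP1 replicate 3 these counts were 5 and 1.

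Genes reported as targets of EGR or AP-1 proteins were higher with NRAS in 14 of 16 cases and lower in 1, with a median of 2.12. The largest changes were those of Spp1 (7.57), which encodes osteopontin, the collagenase gene Mmp13 (4.79), Timp1 (4.30), the growth factor gene Hbegf (4.22), Plau (3.23) and Ccnd1 (3.13), and Vegfa was lower (-0.58). With SETBP1 5 were higher and 1 lower, with a median of 0.30: Il1b (2.05), Spp1 (1.64), Tnf (1.14), Icam1 (0.56) and Vegfa (0.44) rose and Mmp9 fell (-1.31). Without SETBP1 replicate 3 these counts were 5 and 2, with Ccnd1 among the higher genes and Icam1 not. Mmp13 was also higher with both than with NRAS, at 411 ± 111 CPM against 208 ± 15.3 (SD, n = 3; log2 0.98, edgeR adjusted p 0.0439).

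**Figure D4:**
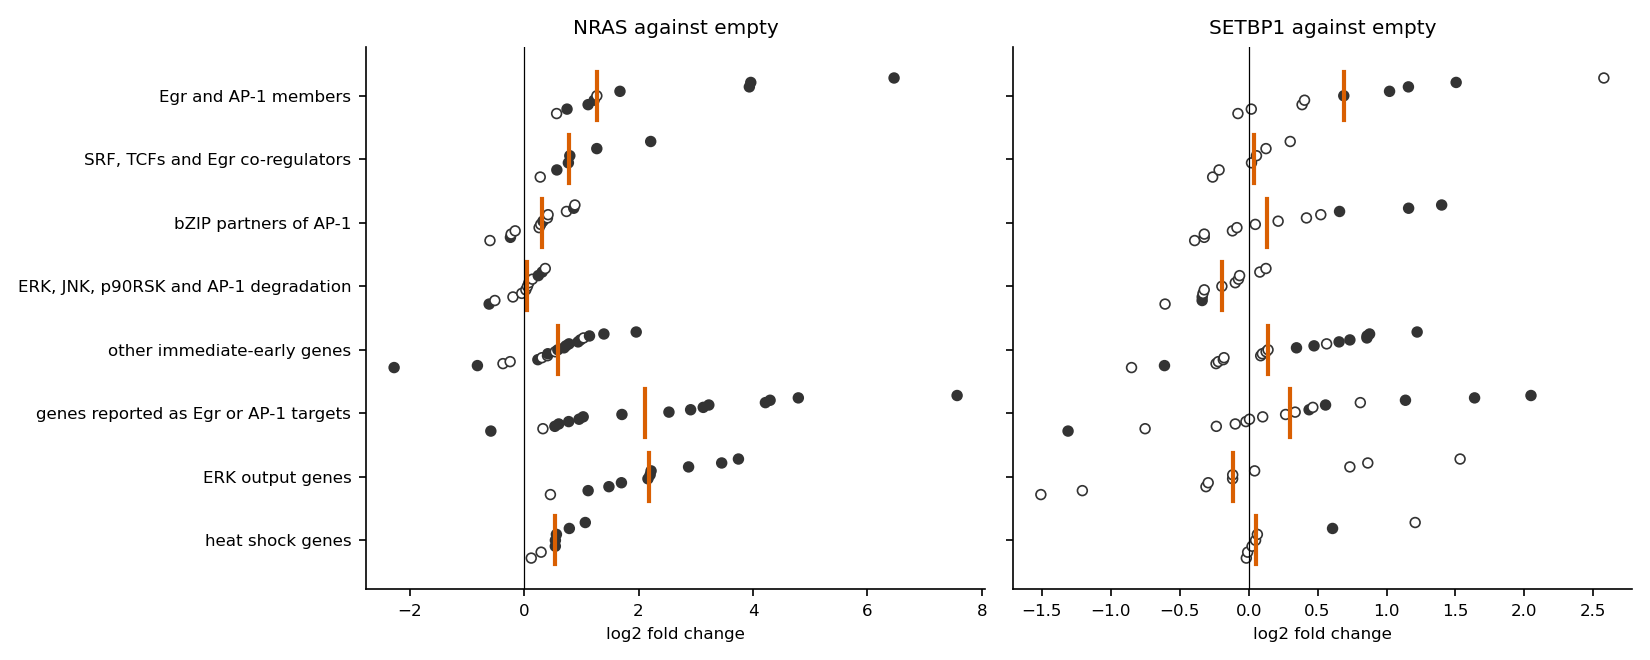
Log2 fold change (x axis) of the tested members and of each gene list (y axis), with NRAS on the left and SETBP1 on the right; each point is a gene, filled where its edgeR adjusted p was under 0.05, and the vertical bar is the list's median. ERK output genes have a median of 2.18 with NRAS and -0.12 with SETBP1, while the members have medians of 1.27 and 0.69.

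Marker sums of cell types differed between the same groups. With NRAS the summed CPM of progenitor markers was 8918 to 9846, against 21568 to 24127 with empty vectors. That of mast-cell and basophil markers was 733 to 1240.1 against 3138 to 3228, and that of late neutrophil markers 5868 to 7523 against 11188 to 12616. Of 10 late neutrophil markers, 5 were lower with NRAS and 2 higher, Cxcr2 (log2 1.08) and Mmp9 (0.96). Of 13 monocyte and macrophage markers, 5 were lower and 2 higher, Cd14 (3.44) and Mrc1 (0.82), with sums of 4170 to 4543 against 4544 to 5055. Without SETBP1 replicate 3, 9 of these 13 were lower and 4 higher. Calls over all genes also moved without 1 library at a time, from 2681 to 5224 for NRAS against empty. The ranges were 390 to 3191 for SETBP1 against empty and 93 to 836 for both against NRAS. Most of the progenitor sum was Mpo (15347 CPM with empty vectors) and Elane (6436 CPM), and of the 7 progenitor markers 4 were lower with NRAS while Cd34 (log2 1.17) and Ptprc (0.40) were higher. Stromal and endothelial markers summed to 180.5 to 287 CPM with NRAS and 102 to 119 with empty vectors, nearly all of it from Pecam1, which blood cells also express; Cxcl12 had no reads. Heat shock genes, which can rise when tissue is handled, were higher with NRAS in 5 of 7 cases, with a median of 0.55. With SETBP1, 8 of 13 monocyte and macrophage markers were higher, with sums of 5341 to 7285 against 4544 to 5055, as were 8 of 13 without SETBP1 replicate 3, and 1 of 7 heat shock genes was higher (median 0.05). In the same comparison 8 of 10 late neutrophil markers were lower (sums of 5136 to 7326), as were 6 of 9 mast-cell and basophil markers (1698 to 2433), and progenitor sums were 15387 to 16949. With both against NRAS, 7 of 13 monocyte markers were higher and 1 lower (10 and 1 without SETBP1 replicate 3), with sums of 4183 to 4583 against 4170 to 4543, and 8 of 10 late neutrophil markers were lower, with sums of 1986 to 2489 against 5868 to 7523. The part of these markers in the changes of the Egr, Fos and Jun genes was not tested.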

How the data were processed

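RNA was sequenced from 12 bone marrow samples, 3 for each of 4 retroviral transductions. The authors deposited 1 table of raw read counts for each gene and sample. The submitters' processing notes name mm10, STAR and DESeq2, with no versions. The counting tool, strand setting and filter are not given in the sources used here.

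Members and gene lists were chosen with earlier results of these data known. Counts of all genes were fitted with edgeR 4.0.16 in R 4.3.3 by the quasi-likelihood test. Scaling used TMM factors (trimmed means of M-values), and filterByExpr removed low genes (count minimum 10, total minimum 15). A mean for each of the 4 groups was fitted over the 12 libraries, with no covariate. Tests were two-sided, with Benjamini-Hochberg adjustment over the 10993 genes of each comparison and a threshold of 0.05. These genes held 99.9% of the counts. SE is the fold change divided by the square root of its F statistic, and 95% intervals used the fit's degrees of freedom.

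The comparisons were NRAS against empty, both against SETBP1, SETBP1 against empty, both against NRAS, each mutant averaged over both backgrounds, and the interaction. NRAS against SETBP1 was added after the values were seen. Normalised CPM used the TMM factors. Lengths are the union of exons in GENCODE on GRCm38. Likeness used log2 CPM with a prior count of 2. Named genes of a list were those past the threshold with the largest changes, at most 6 a list and comparison. The steps were tested on simulated data. Alternatives were DESeq2 1.42.0, its size factors in edgeR, library-size scaling, no low-count filter, only the groups compared, a replicate block, and leaving out each library.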

Additional observations from a re-analysis of the deposited data

Results flagged for a closer look

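Egr1 moved in opposite directions with SETBP1 in the absence and in the presence of NRAS, with no overlap of the libraries in either case. Its log2 change was 1.16 for SETBP1 against empty, higher in 3 of 3 libraries, and -0.60 for both against NRAS, lower in 3 of 3 libraries. The difference between these changes was tested as the interaction, which was -1.76 with an edgeR adjusted p of 0.132. That p was 0.000427 in DESeq2, 0.0345 with no low-count filter, and 0.0431, 0.0356 and 0.00519 without SETBP1 replicates 1, 2 and 3 in turn; over all 17 alternatives it ranged from 0.000427 to 0.401 and the difference from -2.0 to -1.42.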

How the results depend on the processing

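Over 18 alternatives, NRAS against empty kept its direction and its side of the threshold for Egr1, Egr3, Fosl1, Fosl2, Jun, Junb and Jund, and SETBP1 against empty did so for Junb. The fit of only the groups compared, which estimates the spread from fewer libraries, changed most counts. Members past the threshold became 5 for both against SETBP1, 1 for SETBP1 against empty and 3 for both against NRAS. All genes became 3083, 110 and 883 in these comparisons and 2848 for NRAS against SETBP1. For NRAS against empty, members became 9 and all genes 5261. DESeq2 called 379 genes for both against NRAS, and 93 genes and 2 members for the interaction. With no low-count filter the interaction had 14 genes and 2 members, and with library-size scaling 1 member. Library-size scaling moved the median of all genes to -0.10 for NRAS against empty and the higher and lower calls to 1379 and 2265 (TMM 1868 and 1708), to 1720 and 2888 for both against SETBP1 (TMM 2293 and 2368) and to 2131 and 3502 for NRAS averaged (TMM 2856 and 2828); apart from Junb in the interaction no member's call changed with it.

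Without 1 library at a time, members past the threshold ranged from 5 to 8 for both against SETBP1, from 0 to 3 for both against NRAS, from 0 to 2 for the interaction and from 6 to 9 for NRAS against SETBP1. All genes ranged from 390 to 3191 for SETBP1 against empty, from 93 to 836 for both against NRAS, from 779 to 2680 for SETBP1 averaged and from 1 to 110 for the interaction. The cause was not tested.

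Signs turned for changes near 0 or resting on few libraries. With library-size scaling Fosl1 was -0.028 for SETBP1 against empty. Without 1 library at a time, SETBP1 against empty ranged from -0.13 to 0.18 for Fosl1, from -0.19 to 0.052 for Fosl2 and from -0.50 to 0.89 for Egr2, and NRAS averaged from -0.17 to 0.10 for Fos. The Egr2 range was -0.29 to 0.40 for SETBP1 averaged, -0.96 to 0.42 for the interaction and -0.33 to 0.31 for both against NRAS, and the Jund interaction ranged from -0.34 to 0.19. Leaving out SETBP1 replicate 3 turned Egr2 for SETBP1 against empty, for SETBP1 averaged and for the interaction, and the Jund interaction. Egr3 for both against NRAS ranged from -0.29 to 0.049, turning without replicate 2 of both.

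Replicate numbers did not pair the libraries: deviations of same-numbered libraries correlated between -0.20 and 0.21, and 4 of 12 libraries were closest to their own number. With the replicate block, 7 members passed for both against SETBP1, since Fos was lost (-0.58, adjusted p 0.0576), and no other member's call changed. Depth limited Egr3 and Fosb, with 2 and 0 reads over the empty libraries.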
